A study of Mus musculus with 10 samples.

Results

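The endoplasmic reticulum (ER) folding and stress genes are a set of 33 named genes, chosen by function but with earlier results of these data known. They come out of 23725 genes on which at least 1 read was counted in interscapular brown adipose tissue (iBAT). The set holds 9 lumenal chaperones, 7 lectin chaperones and disulfide enzymes, 2 translocon subunits, 9 factors of ER-associated degradation, and 6 stress sensors and signal factors. Identifiers were mapped to symbols with GENCODE M21 on GRCm38, and all 33 members had an identifier in the deposited tables. Of these, 32 passed the filter on low counts (a mean above 1 CPM, the count scaled to the size of its library, over the 10 mice) and entered the test. Derl3, the exception, had 0 to 2 counts per mouse.

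RNA was sequenced from whole iBAT depots of 10 male mice, 5 Axl KO and 5 wild-type (WT) littermate controls, all on a C57Bl6 background. AXL is a receptor tyrosine kinase, and the Axl KO mice carry constitutively and in every tissue a "knockout-first" tm1a cassette with a splice acceptor, LacZ and a neomycin-resistance gene inside Axl, from ES cells of a pair of clones. Which clone each mouse descends from is not given in the sources used here. Because the receptor is absent from every tissue, effects of its loss in adipocytes and in other cells cannot be told apart. By the labels, both groups started a high-fat diet (HFD) at 6 to 8 weeks of age and remained on it for 24 weeks, with no chow-fed group. The paper gives room temperature for these mice, and its own text gives a slightly different age and duration.

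Proteins of the secretory pathway and the cell membrane enter the ER through the translocon and fold there with the help of chaperones, of the calnexin and calreticulin cycle for glycoproteins, and of enzymes that form disulfide bonds. Chains that fail to fold are moved back to the cytosol and destroyed by ER-associated degradation. When unfolded chains accumulate, the sensors IRE1α (Ern1), PERK (Eif2ak3) and ATF6 start the unfolded protein response, which slows translation and raises transcription of many of these genes. Brown adipocytes secrete hormones and enzymes and carry many membrane proteins, and their ER also makes lipids.

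The total count per mouse was between 5431014 and 9580215. Axl itself checked the labels: it had 1.57 ± 0.647 CPM in Axl KO and 43.2 ± 5.86 CPM in WT mice (SD, n = 5 each), a log2 fold change of -4.77 (SE 0.25) with an adjusted p of 1.09e-07 in edgeR's quasi-likelihood test. It was also the 1 gene of 13739 tested with an adjusted p under 0.05 (0.00728%). Brown adipocyte identity was present in all mice, with Ucp1 at 4864 to 7648 CPM in Axl KO and 2996 to 5050 CPM in WT mice.

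Many ER genes are known for a promoter element, the ER stress response element (ERSE), at which ATF6, and in part XBP1, bind next to the factor NF-Y. It is shown first as a sequence feature of the members. Several members are known as targets of these factors, so its share among the members is a description and not an independent finding. The element was searched for as CCAAT, 9 bases of any kind and CCACG, on both strands, in the RefSeq promoters of build GRCm38.p6 that run from 250 bases before to 50 bases after the start of transcription. A promoter was listed for 27 of the 33 members. The ERSE was found in 9 of these 27 (33.3%) and in 37 of all 27025 genes of the same table (0.137%). Each site is given in its own reading direction, with the bases that define the element in capitals.
Hspa5 (chr2:34772025-34772043, plus strand): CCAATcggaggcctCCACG
Hsp90b1 (chr10:86705638-86705656, minus strand): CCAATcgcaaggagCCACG
Hsp90b1 (chr10:86705533-86705551, plus strand): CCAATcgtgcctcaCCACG
Dnajc3 (chr14:118937827-118937845, plus strand): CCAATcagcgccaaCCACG
Creld2 (chr15:88819520-88819538, minus strand): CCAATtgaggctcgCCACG
Calr (chr8:84847075-84847093, plus strand): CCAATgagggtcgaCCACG
Canx (chr11:50325800-50325818, minus strand): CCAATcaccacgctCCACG
Pdia6 (chr12:17266491-17266509, plus strand): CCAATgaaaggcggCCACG
Syvn1 (chr19:6046532-6046550, plus strand): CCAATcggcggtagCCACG
Derl3 (chr10:75893242-75893260, minus strand): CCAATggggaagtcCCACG

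The 9 genes cover 4 lumenal chaperones, 3 members of the lectin and disulfide group and 2 degradation factors. No match was found in the other 18 members searched, among them Sec61b, Xbp1, Ern1 and Eif2ak3. Hyou1, Manf, Sec61a1, Derl1, Atf6 and Ppp1r15b had no listed promoter and were not searched. Hsp90b1 held 2 sites in opposite directions. In the Hspa5 promoter the site lay 65 to 47 bases before the RefSeq start, within the stretch chr2:34772020-34772048 on the plus strand, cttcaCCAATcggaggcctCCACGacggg, where the capitals again mark the element. GENCODE M21 starts the gene at 34771970, so that the same bases lie inside the annotated gene there.

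A second element, the ERSE-II, read here as ATTGG, 1 base and CCACG, was found in 2 of the 27 members (7.41%) and in 0.0444% of all genes, and its sites are shown because the element is known from the Herpud1 promoter.
Dnajb11 (chr16:22857852-22857862, plus strand): ATTGGcCCACG
Herpud1 (chr8:94386377-94386387, plus strand): ATTGGgCCACG

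The half-site CCACG alone, which every ERSE and ERSE-II contains, was in 23 of 27 members (85.2%) and in 35.5% of all genes. TGACGTGG, a core of the unfolded protein response element, was in 0 of 27 members and 0.714% of all genes. These matches are descriptions of letters in a window and carry no information on binding in iBAT.

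None of the 32 tested members passed the test across all genes between Axl KO and WT mice. No member had an adjusted p under 0.05 in edgeR (adjusted p from 0.572 to 0.998), and no member had one in DESeq2. At an unadjusted p under 0.05, 2 members were higher in Axl KO mice (Manf and Eif2ak3) and 0 were lower. Of all tested genes, 4.52% were higher and 3.86% lower at the same threshold, so that 2 of 32 is close to the background. DESeq2 also gave 2, namely Manf and Canx. By exact permutation, without adjustment, 4 of the 32 were under 0.05 (Manf, Eif2ak3, Canx and Dnajb11). The share of all tested genes under 0.05 by exact permutation was not computed, so that this count cannot be set beside a background. Exact permutation p was 0.0635 for Derl2, 0.0714 for Ero1l, 0.103 for Dnajc3, 0.119 for P4hb and 0.135 for Ern1. It was 0.254 for Xbp1, 0.262 for Derl1, 0.484 for Hspa5 and 0.833 for Atf6. In 1 member (Eif2ak3) the normalized counts of the 5 Axl KO mice did not overlap with those of the 5 WT mice, against 1.36% of all tested genes. The fitted log2 fold change was positive for 22 members and negative for 10 (68.8% positive), with a median of 0.084; over all tested genes 49.7% were positive and the median was -0.00078.

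The count at the unadjusted threshold changed when single mice were left out. It became 5 without Axl KO replicate 2 and 4 without WT replicate 4. It became 1 without Axl KO replicate 4, Axl KO replicate 5, WT replicate 1 or WT replicate 5. The genes behind it changed too, and without Axl KO replicate 5 the 1 member was Derl2 (unadjusted p 0.0433 in edgeR). For these fits the share of all tested genes at this threshold was not computed. The 95% interval of the log2 fold change lay inside 2-fold in either direction for all 32 tested members and inside 1.5-fold for 31. Sdf2l1, with 10 to 25 counts per mouse, had the widest one. In whole tissue, fewer cells of a type and less RNA per cell cannot be told apart.

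**Figure D1:**
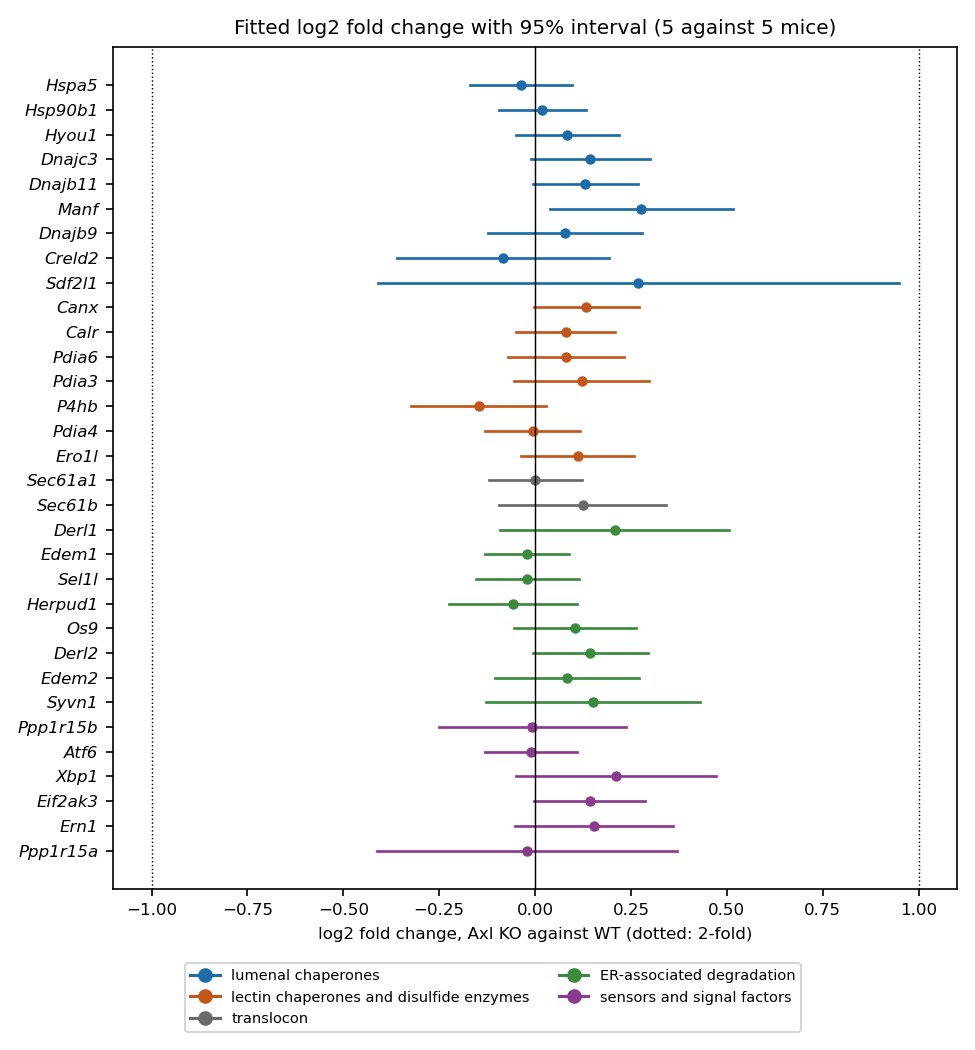
Fitted log2 fold change (x axis, Axl KO against WT, 5 mice each) of the 32 tested ER genes (y axis, colored by role), with bars for the 95% interval and dotted lines at 2-fold. All intervals stay within 2-fold, from a lowest bound of -0.41 (Ppp1r15a) to a highest bound of 0.95 (Sdf2l1), and that of Manf alone lies wholly above 0.

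Among the lumenal chaperones, 7 of 9 fold changes were positive, 1 passed the unadjusted threshold (Manf), and the median was 0.084. Hspa5 (ENSMUSG00000026864, chr2:34771970-34777547) encodes BiP, the main HSP70 of the ER lumen, which also holds the sensors inactive. Hspa5 reached 287, 320.0, 281, 284 and 304 CPM in the 5 Axl KO mice and 287, 332, 297, 295 and 303 CPM in the 5 WT mice. The groups overlapped almost fully, and replicate 2 was the highest mouse in each. Hspa5 had a log2 fold change of -0.037 (SE 0.061, 95% interval -0.17 to 0.10, adjusted p 0.884).

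Manf (ENSMUSG00000032575, chr9:106838312-106891979) encodes a small secreted protein that binds BiP. Its normalized counts were 30.5, 26.8, 27.0, 29.3 and 40.5 CPM in Axl KO mice and 26.0, 27.1, 22.2, 24.6 and 26.6 CPM in WT mice. Axl KO replicate 5 stood apart at the top, 2 other Axl KO mice also lay above every WT mouse, and the remaining 2 lay within the WT range. The fit gave Manf a log2 fold change of 0.28 (SE 0.11, 95% interval 0.038 to 0.51), with an unadjusted p of 0.0267, an adjusted p of 0.572 and a two-sided exact permutation p of 0.0238. Without Axl KO replicate 5 it was 0.16 with an unadjusted p of 0.0585, a value lower by more than 1.5 times. Exons of Manf overlap those of 4930524O07Rik, Dcaf1 and Rbm15b in the annotation, and reads there may have been counted to another gene.

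Dnajb11 (ENSMUSG00000004460, chr16:22857845-22879634) and Dnajc3 (ENSMUSG00000022136, chr14:118937976-118981697) encode J-domain co-chaperones of BiP, and the product of Dnajc3 is also known as an inhibitor of PERK. Dnajb11 was counted at 31.4, 28.5, 29.0, 29.8 and 31.3 CPM in Axl KO mice and at 27.2, 25.0, 27.8, 29.5 and 27.5 CPM in WT mice. The ranges overlapped through WT replicate 4. With a log2 fold change of 0.13 (SE 0.063, unadjusted p 0.0583, adjusted p 0.602), Dnajb11 did not pass either threshold, and its exact permutation p was 0.0238. For Dnajc3 the Axl KO mice had 118, 106, 110.0, 112 and 132 CPM and the WT mice 108, 110.4, 94.2, 100.3 and 110.1 CPM. Axl KO replicate 5 was again the highest of the 10 mice. The log2 fold change of Dnajc3 was 0.14 (SE 0.071, adjusted p 0.602), and it was 0.091 without Axl KO replicate 5.

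The other lumenal members overlapped between the groups. Hsp90b1 (GRP94, the HSP90 of the ER) ranged from 218 to 246 CPM in Axl KO and 221 to 234 CPM in WT mice. Hyou1 (GRP170, a nucleotide exchange factor of BiP) ranged from 133 to 154 CPM in Axl KO and 126 to 145 CPM in WT mice. Dnajb9 (ERdj4, a co-chaperone that returns BiP to IRE1α) ranged from 23.4 to 30.4 CPM in Axl KO and 22.8 to 29.0 CPM in WT mice. These 3 genes had log2 fold changes of 0.019, 0.084 and 0.077. Creld2, which is induced by ER stress, ranged from 6.86 to 9.89 CPM in Axl KO and 7.11 to 9.33 CPM in WT mice with a log2 fold change of -0.085. Sdf2l1, a partner of BiP and Dnajb11, was the weakest tested member at 1.46 to 3.58 CPM in Axl KO and 1.38 to 3.15 CPM in WT mice.

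**Figure D2:**
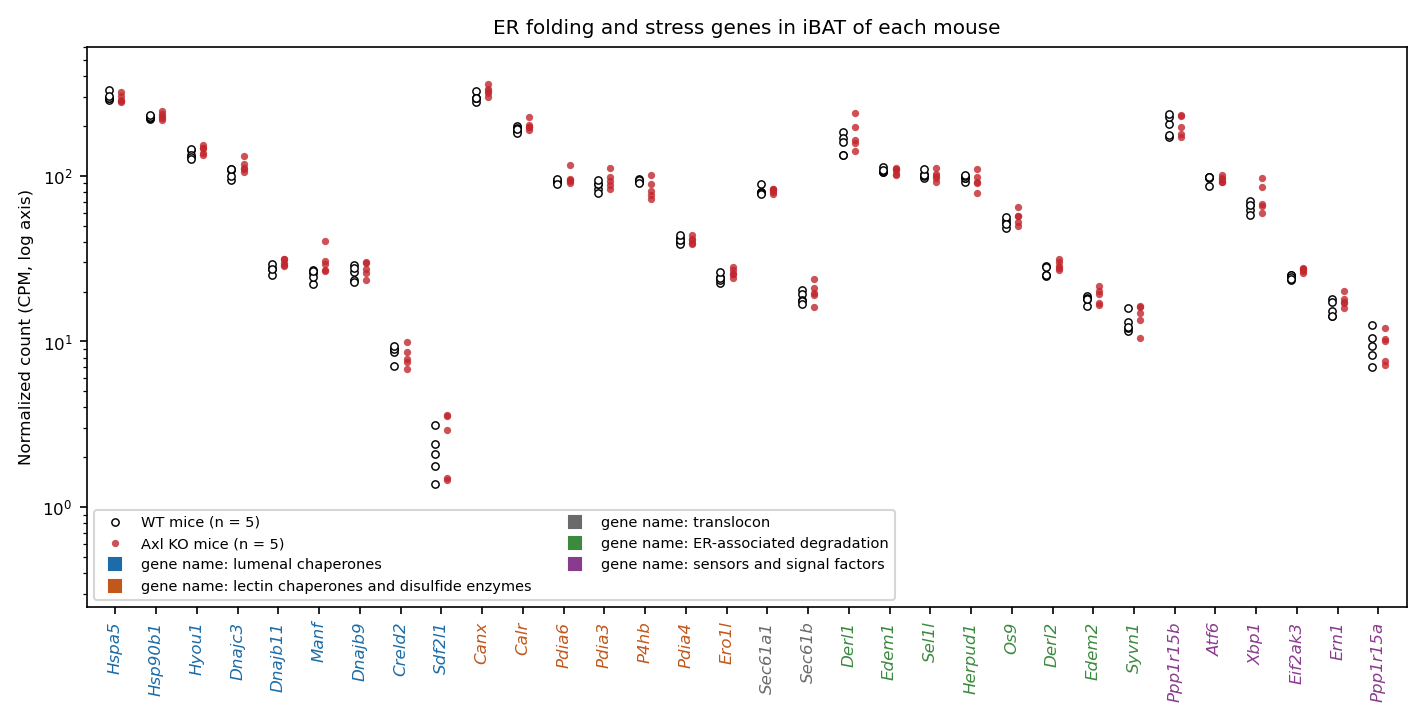
Normalized count (CPM, log axis) of each tested ER gene (x axis, gene names colored by role) in every mouse, with open circles for the 5 WT mice and filled circles for the 5 Axl KO mice. The clouds overlap in every gene other than Eif2ak3, whose 5 Axl KO mice lie between 26.1 and 27.9 CPM and whose 5 WT mice lie between 23.4 and 25.4 CPM.

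In the group of lectin chaperones and disulfide enzymes, 5 of 7 fold changes were positive, none passed the unadjusted threshold in edgeR, and the median was 0.081. Canx (ENSMUSG00000020368, chr11:50293961-50325673) encodes calnexin, the membrane-bound lectin that holds young glycoproteins. Canx reached 328, 317, 299.7, 337 and 358 CPM in Axl KO and 281, 326, 296, 295 and 296 CPM in WT mice. All 5 Axl KO mice lay above 4 of the WT mice, and WT replicate 2 lay inside their range. For Canx the log2 fold change was 0.13 (SE 0.064, 95% interval -0.0039 to 0.27), the unadjusted p 0.0558, the adjusted p 0.602 and the exact permutation p 0.0476. Its soluble counterpart calreticulin (Calr) had 202 ± 13.7 CPM in Axl KO and 191 ± 7.41 CPM in WT mice (SD, n = 5 each), with a log2 fold change of 0.08.

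P4hb (ENSMUSG00000025130, chr11:120560298-120573253), which encodes protein disulfide isomerase (PDI), had the lowest fold change of the 32 members. Its counts were 89.4, 81.5, 101, 72.0 and 77.1 CPM in Axl KO mice and 92.9, 96.3, 91.4, 94.9 and 90.7 CPM in WT mice. Of the Axl KO mice, 4 lay below every WT mouse, and Axl KO replicate 3 lay above all of them. The Axl KO mice were also more spread, with a coefficient of variation of 13.3% against 2.54% in WT mice. P4hb had a log2 fold change of -0.15 (SE 0.081, unadjusted p 0.0937 and adjusted p 0.636 in edgeR). Without Axl KO replicate 3 it was -0.22 with an unadjusted p of 0.00619 and an adjusted p of 0.178. Without Axl KO replicate 4 it was -0.095 with an unadjusted p of 0.239 and an adjusted p of 0.777. How many of all tested genes had a low p in these fits was not computed.

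Ero1l (ENSMUSG00000021831, chr14:45283087-45318771) encodes the oxidase that recharges PDI. Ero1l was counted at 28.3, 24.2, 25.6, 25.7 and 27.0 CPM in Axl KO mice and at 22.4, 23.4, 24.6, 24.1 and 26.4 CPM in WT mice, and the ranges overlapped. Ero1l had a log2 fold change of 0.11 (SE 0.068, adjusted p 0.662). The other disulfide isomerases were Pdia3 (ERp57, the partner of calnexin and calreticulin), at 83.2 to 112 CPM in Axl KO and 78.9 to 94.2 CPM in WT mice, Pdia4, at 38.9 to 43.8 CPM in Axl KO and 38.8 to 43.8 CPM in WT mice, and Pdia6, at 90.3 to 116 CPM in Axl KO and 89.0 to 95.1 CPM in WT mice. Their log2 fold changes were 0.12, -0.006 and 0.081. The top of the Pdia6 range came from Axl KO replicate 1 alone.

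Neither of the translocon subunits passed the unadjusted threshold. Sec61a1, the pore, ranged from 77.2 to 83.6 CPM in Axl KO and 77.5 to 89.8 CPM in WT mice, and Sec61b, a small subunit beside it, from 16.2 to 24.0 CPM in Axl KO and 16.9 to 20.5 CPM in WT mice. Their log2 fold changes were 0.00096 and 0.12.

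Of the ER-associated degradation factors, 8 of 9 were tested, 5 fold changes were positive and 3 negative, and none passed the unadjusted threshold. The median was 0.093. Derl1 (ENSMUSG00000022365, chr15:57869502-57892448) and Derl2 (ENSMUSG00000018442, chr11:71007164-71019841) encode Derlins, membrane proteins that help to carry chains out of the ER. Derl1 reached 239.5, 159, 142, 164 and 198 CPM in Axl KO mice and 183, 169.9, 134, 161 and 133 CPM in WT mice. Axl KO replicates 1 and 5 were the highest, and the other mice of both groups were intermixed. Its log2 fold change was 0.21 (SE 0.14, adjusted p 0.683), and it was 0.085 without Axl KO replicate 1. Derl2 reached 31.7, 30.3, 27.9, 28.6 and 27.1 CPM in Axl KO mice and 24.9, 25.4, 28.4, 28.2 and 25.1 CPM in WT mice. Of the WT mice, 3 lay below every Axl KO mouse and 2 lay within the Axl KO range. Its log2 fold change was 0.14 (SE 0.069, unadjusted p 0.0586, adjusted p 0.602, exact permutation p 0.0635), and its exons overlap those of Mis12.

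Derl3, the Derlin known from professional secretory cells such as plasma cells, had no count in 3 of the 5 Axl KO and in 2 of the 5 WT mice. Its highest value was 0.301 CPM, and no fold change is given. The 14 markers of plasma cells and B cells summed to 36.0 to 64.7 CPM in Axl KO and 32.8 to 87.6 CPM in WT mice, none of the 14 was at 0 in every mouse, and their part in the Derl3 counts was not tested. Syvn1 (HRD1), the ubiquitin ligase of this pathway, ranged from 10.6 to 16.4 CPM in Axl KO and 11.6 to 16.0 CPM in WT mice. Its partner Sel1l ranged from 91.8 to 112 CPM in Axl KO and 96.6 to 110.1 CPM in WT mice. Herpud1, an organizer of the same complex, ranged from 79.2 to 109.7 CPM in Axl KO and 92.1 to 101 CPM in WT mice. The products of Os9, Edem1 and Edem2 handle misfolded glycoproteins. Os9 ranged from 50 to 64.8 CPM in Axl KO and 48.4 to 56.4 CPM in WT mice. Edem1 ranged from 101 to 111 CPM in Axl KO and 106 to 113 CPM in WT mice. Edem2 ranged from 16.6 to 21.7 CPM in Axl KO and 16.4 to 18.7 CPM in WT mice. Edem1 was among the steadiest members, with a coefficient of variation of 3.62% within genotype.

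Of the 6 sensors and signal factors, 3 fold changes were positive and 3 negative, with a median of 0.068. Eif2ak3 (ENSMUSG00000031668, chr6:70844515-70905245) encodes PERK, the kinase that slows translation under ER stress. Its counts were 26.6, 26.1, 27.4, 27.9 and 27.5 CPM in Axl KO mice and 23.4, 25.4, 25.4, 24.6 and 24.0 CPM in WT mice. The 5 Axl KO values were all higher than the 5 WT values. Eif2ak3 had a log2 fold change of 0.14 (SE 0.067, 95% interval -0.0024 to 0.29), with an unadjusted p of 0.0356 and an adjusted p of 0.572. The two-sided exact permutation p was 0.00794, the smallest that 5 against 5 mice can give. The means were 27.1 ± 0.747 and 24.5 ± 0.869 CPM (SD, n = 5 each). This spread was below that of counting alone, since the coefficient of variation within genotype was 3.15% and 143 to 239 counts per mouse give 7.38%. The SE and interval given take the counting error as their floor, and the interval reached just below 0 although the unadjusted p was under 0.05. Exons of Eif2ak3 overlap those of Gm43292.

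Ern1 (ENSMUSG00000020715, chr11:106394650-106487852) encodes IRE1α, the sensor that splices the Xbp1 messenger, and Xbp1 (ENSMUSG00000020484, chr11:5520659-5525893) encodes the transcription factor made from it. Ern1 was counted at 17.3, 20.2, 15.9, 17.9 and 17.2 CPM in Axl KO mice and at 14.2, 15.4, 18, 14.3 and 17.4 CPM in WT mice, with WT replicates 3 and 5 inside the Axl KO range. Its log2 fold change was 0.15 (SE 0.095, adjusted p 0.665), and it was 0.10 without Axl KO replicate 2. Xbp1 reached 85.5, 60.1, 65.9, 67.2 and 97.7 CPM in Axl KO mice and 67.0, 62.2, 70.2, 57.7 and 66.8 CPM in WT mice. Axl KO replicates 1 and 5 were above all other mice, and the other 3 Axl KO mice lay within the WT range. The log2 fold change of Xbp1 was 0.21 (SE 0.12, 95% interval -0.049 to 0.47, adjusted p 0.642), and it was 0.10 without Axl KO replicate 5. The deposited tables sum all transcripts of a gene, so that spliced and unspliced Xbp1 cannot be told apart.

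Atf6 (ENSMUSG00000026663, chr1:170704674-170867771), the sensor that is cut in the Golgi to release a transcription factor, was counted at 92.0, 102, 91.6, 96.5 and 95.6 CPM in Axl KO mice and at 97.3, 99.0, 98.7, 99.1 and 87.3 CPM in WT mice. The groups overlapped, and WT replicate 5 was the lowest mouse. Its log2 fold change was -0.012 (SE 0.055, 95% interval -0.13 to 0.11, adjusted p 0.971). Ppp1r15a (GADD34) and Ppp1r15b (CReP) direct the phosphatase that reverses the work of PERK, the first on stress and the second at rest. Ppp1r15a ranged from 7.17 to 12.1 CPM in Axl KO and 7.06 to 12.6 CPM in WT mice, and Ppp1r15b from 171 to 234 CPM in Axl KO and 173 to 236 CPM in WT mice. Their log2 fold changes were -0.022 and -0.0069.

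Levels between genes were compared as CPM per kilobase of exon. Hspa5 ranked first of the 33 members (70.7 CPM per kilobase), followed by Calr (68.2), Canx (66.8), Hsp90b1 (56.8), Derl1 (50.6) and Herpud1 (41.0). The gaps among Hspa5, Calr and Canx are within their spread between mice, with coefficients of variation of 5.65%, 5.33% and 6.07%. The 3 sensors were far lower on this scale, at 10.4 (Atf6), 4.29 (Eif2ak3) and 2.05 (Ern1), while the constitutive phosphatase subunit Ppp1r15b was at 36.3 and its stress-induced counterpart Ppp1r15a at 3.23. All exons of all annotated transcripts were used as the length, which understates genes with long exons that iBAT does not use.

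Together the 33 members took up 0.281% to 0.294% of all counts in Axl KO and 0.267% to 0.285% in WT mice, and summed to 2719 to 3012 and 2715 to 2900 CPM. The ranges overlapped. Between mice of one genotype, the 29 members above 10 CPM had a median coefficient of variation of 6.62%. It was 9.11% over the 8660 genes above 10 CPM, and 20 of the 29 were below that value. The 2 sets were not matched for level, and counting alone gives less spread at higher counts (2.17% for Hspa5, 10.2% for Syvn1). The part of level in this difference was not tested. Eif2ak3 varied least (3.15%) and Sdf2l1 most (35.9%) among the 32 tested members. Axl KO replicate 5 held the highest value of the 10 mice in 10 of 32 members (31.2%, against 17.8% of all tested genes) and Axl KO replicate 1 in 9 (28.1%, against 11.4%). Among the 10 members that were highest in Axl KO replicate 5 were Manf, Xbp1, Canx, Calr, Pdia3 and Herpud1. It was also the mouse with the lowest total count, and the part of depth in this was not tested.

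The next comparison was whether the members vary together from mouse to mouse, measured as the correlation of log2 CPM with Hspa5 over the 10 mice after each genotype mean was subtracted. None of 31 members had an adjusted p under 0.05 when adjusted over all 13738 genes compared, and neither had any other gene (0%). At an unadjusted p under 0.05 there was 1 member with r above 0, Dnajb9, against 1.16% of all genes. In either direction the count was also 1, and it changed when single mice were left out. It became 0 without Axl KO replicate 3, WT replicate 1 or WT replicate 3, 3 without Axl KO replicate 2 and 2 without WT replicate 5. For these settings the share of all genes is not given. Dnajb9 had a Pearson r of 0.69 (exact permutation p 0.0391, adjusted p 1.00) and a Spearman rho of 0.76 (exact permutation p 0.0235, adjusted p 1.00), and r was 0.55 without the 2 mice farthest from the median of Hspa5, which were WT replicate 2 and Axl KO replicate 2. The r of Canx was 0.57 and that of Calr was 0.57, with exact permutation p of 0.103 and 0.113, and without those 2 mice they were 0.81 and 0.80. Sec61a1 also had a high r (0.67, exact permutation p 0.0724), which rested on the same 2 mice and was -0.079 without them. Dnajb11, although a partner of BiP, had the lowest r of all 31 members (-0.54, exact permutation p 0.137), and it was 0.48 without those mice.

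Over the 31 members, 22 had r above 0, and the median r was 0.19, against 0.0062 over all genes. This median rested on single mice: it was 0.028 without WT replicate 2 (18 members above 0) and 0.084 without Axl KO replicate 5, and it was 0.060 when the genotype means were not subtracted. Among the 496 pairs of the 32 tested members the median r was 0.067 and 13.5% of pairs had r above 0.5, against -0.00062 and 9.98% over pairs of all tested genes. The highest r with Hspa5 was found outside the members, among far more genes (8631 above 10 CPM, against 31 members compared). The 5 with the highest r were Atraid (0.89), Pip4k2c (0.89), Tmem37 (0.86), Polr2b (0.86) and Bak1 (0.85). They were picked as the top of these many correlations over 10 mice, and no gene had an adjusted p under 0.05. For these 5 genes r without the 2 farthest mice is not given.

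**Figure D3:**
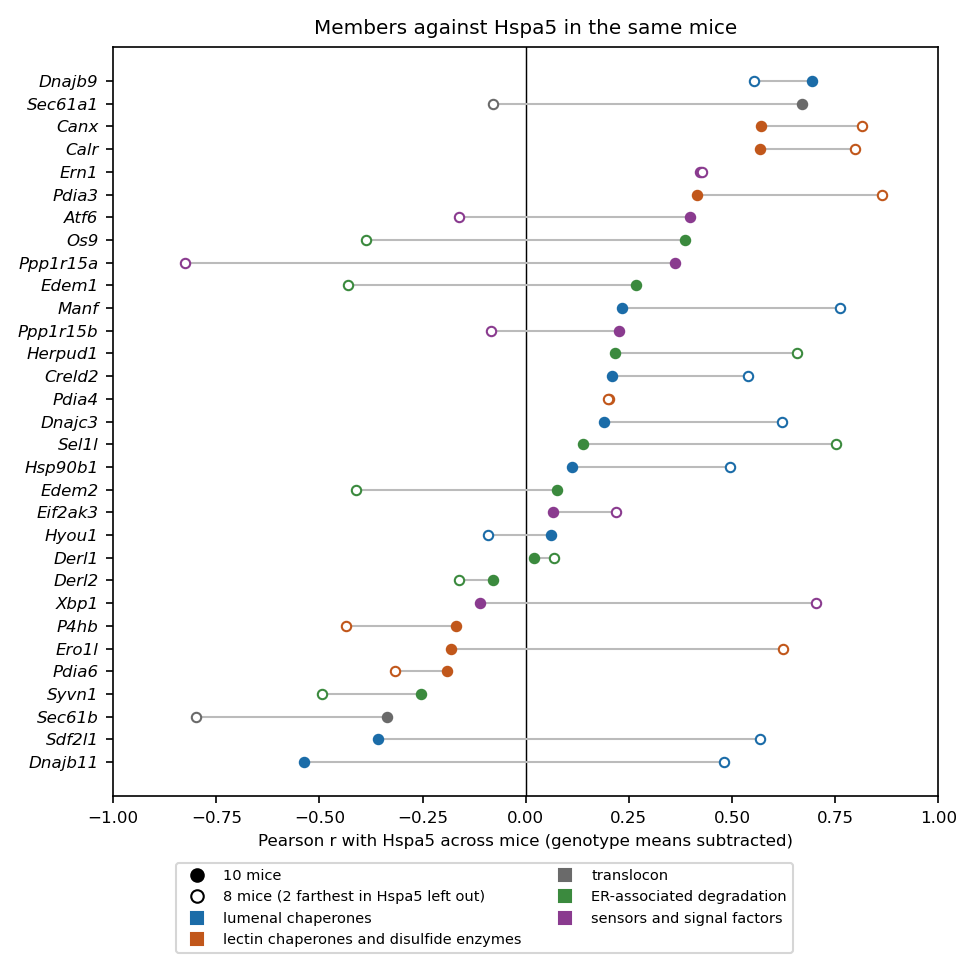
Pearson r of each of 31 ER genes with Hspa5 across mice (x axis, genotype means subtracted), with filled circles for all 10 mice and open circles for the 8 mice left when the 2 farthest from the median of Hspa5 are taken out. Dnajb9 is highest at 0.69 and Dnajb11 lowest at -0.54, and Sec61a1 falls from 0.67 to -0.079 when the 2 mice are left out.

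Fold changes were also read by promoter. The 8 tested members with an ERSE had a median log2 fold change of 0.080 with 0 at an unadjusted p under 0.05. The 18 tested members with a listed promoter and no ERSE had 0.11, and Eif2ak3, which was past that threshold, is one of them. Outside the members, 28 genes had an ERSE, of which 8 were tested. Their median was 0.014, and 1 was higher in Axl KO mice at an unadjusted p under 0.05. At this threshold 4.52% of all tested genes were higher and 3.86% lower.

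A further 4 lists with 123 ER genes that are not members were read out in the same test, and 121 were tested. None had an adjusted p under 0.05, and the median log2 fold change was 0.023. At an unadjusted p under 0.05, 7 of the 121 were higher and 3 lower, where 4.52% of all tested genes were higher and 3.86% lower, so that these counts are close to the background. The 10 genes are given as values only. Among the 36 other chaperones and oxidoreductases tested, Cnpy2, a small lumenal saposin-like protein, had a log2 fold change of 0.37 (SE 0.098), the thioredoxin-like Tmx4 0.30 (SE 0.099) and Txndc12 0.17 (SE 0.073), and the calcium-binding Nucb2 -0.53 (SE 0.19). Of the 38 translocon, signal peptidase and glycosylation genes tested, 28 had positive fold changes, with Prkcsh, the beta subunit of glucosidase II, at 0.28 (SE 0.078) and the signal peptidase subunit Spcs2 at 0.16 (SE 0.07). Of the 28 other degradation genes, Aup1 was at 0.19 (SE 0.068), Erlin1 at -0.32 (SE 0.12) and Herpud2 at -0.18 (SE 0.08). Of the 19 other signalling genes of the unfolded protein response tested, 8 fold changes were positive and 11 negative (median -0.032), and 1, the translation initiation factor subunit Eif2s1 that PERK phosphorylates, was past the unadjusted threshold at 0.16 (SE 0.06). The adjusted p of each of these 10 genes was at least 0.572.

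Markers of other cell types in the depot were read out in the same fit. All 14 skeletal muscle markers had negative fold changes (median -1.05, 0 at an unadjusted p under 0.05), and their sum ranged from 9.19 to 3869 CPM in Axl KO and from 911 to 4499 CPM in WT mice. All 10 fibroblast and matrix markers were negative (median -0.32, 2 at an unadjusted p under 0.05), with sums of 557 to 922 CPM in Axl KO and 777 to 1050 CPM in WT mice. Of 12 brown adipocyte markers, 11 were positive (median 0.12, 5 at an unadjusted p under 0.05). Among all tested genes, 49.7% were positive, and 4.52% were higher and 3.86% lower at the same threshold. The brown list is not independent of the paper, which had already found several of its genes raised without Axl by PCR, Ucp1 among them. The macrophage, endothelial and erythroid lists had medians of 0.018, -0.080 and 0.021, with 0 genes at an unadjusted p under 0.05. Of 13 heat shock genes outside the ER, 1 was past the unadjusted threshold, Hspe1, which encodes the mitochondrial co-chaperonin HSP10, at 0.38 (SE 0.12). Of the 12 immediate early genes tested, 5 fold changes were positive and 7 negative (median -0.032). Past the unadjusted threshold were 2, Fos at -1.74 (SE 0.44) and Jun at -0.34 (SE 0.14). Fos was near the floor, with a mean of 0.851 CPM in Axl KO and 2.73 CPM in WT mice. No marker of these lists was at 0 in every mouse, and none had an adjusted p under 0.05. Their part in the fold changes of the ER genes was not tested.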

How the data were processed

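The deposited files hold, for each of 10 mice, raw counts of reads per Ensembl gene (41249 identifiers, 41163 of them in GENCODE M21), which the authors did not normalize. The paper's methods name Trim Galore, hisat2 and GRCm38, and the submitters' processing notes name Trimmomatic 0.36, STAR 2.6.1c and GRCm38.p5; which made the files, and the counter and its strand setting, are not given in the sources used here. Without strand, reads of overlapping genes cannot be told apart. The labels state polyA RNA, while the paper states rRNA depletion.

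Counts were normalized by TMM and tested in R 4.3.3 with edgeR 4.0.16 (quasi-likelihood test, no covariate, Benjamini-Hochberg adjustment) over 13739 genes whose mean in the 10 mice exceeded 1 CPM. The procedure was tested on simulated data. Alternatives were DESeq2 1.42.0, RLE size factors, other filters, protein-coding genes alone, each mouse left out, and the replicate number as a block. Single genes were also compared by two-sided exact permutation over 252 splits of the mice, and correlations with Hspa5 over 14400 orders within genotype. Correlation p-values are given adjusted over all genes.

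The total counts, 5431014 to 9580215, limit the precision of low genes. Any pair of mice differed by far more than sampling noise (the lowest chi-square was 5.03 per gene), and all were kept as separate replicates. The members, lists and motifs were chosen with earlier results of these data known. Values of every mouse are given for Hspa5, Xbp1, Ern1, Eif2ak3, Atf6 and the 8 other members with the lowest unadjusted p. Other genes named are Axl, the genes of the 4 further ER lists with an unadjusted p under 0.05 (at most 4 a list), the 5 genes most like Hspa5, and Ucp1, Hspe1, Fos and Jun, which were chosen after their values were seen. Hm13, in 1 of these lists, had no identifier.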

Additional observations from a re-analysis of the deposited data

Results flagged for a closer look

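In 6 of 64 groups of 5 mice (32 members in 2 genotypes), 1 mouse stood apart from the other 4, its gap to the nearest of them being more than 0.71 of the whole range of the group. Chance gives about 1 in 20 such groups, or 3.2 of 64. In Axl KO mice these were Manf in replicate 5 (40.5 CPM, nearest mouse 30.5 CPM) and Pdia6 in replicate 1 (116 CPM, nearest 96.2 CPM). In WT mice they were Creld2 in replicate 1 (7.11 CPM, nearest 8.69 CPM), Sec61a1 in replicate 2 (89.8 CPM, nearest 80.2 CPM), Edem1 in replicate 2 (113 CPM, nearest 108 CPM) and Atf6 in replicate 5 (87.3 CPM, nearest 97.3 CPM).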

How the results depend on the processing

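The depth and the 5 mice a group set the width of the stated 95% intervals. Under all 16 alternatives 0 members and 0 genes of the other ER lists had an adjusted p under 0.05 (lowest for a member 0.178 in edgeR, 0.662 in DESeq2, which called 9 genes in all), and the median log2 fold change of the members stayed between 0.080 and 0.12. The number of members with an unadjusted p under 0.05 was 2. It was 1 with no filter on low counts, 3 with protein-coding genes alone (Canx being added) and 1 with the replicate number as a block. Under DESeq2, RLE factors and filterByExpr it was 2, and it was 1 to 5 when a mouse was left out. Under the alternatives the share of all tested genes at this threshold was not computed. With the block, the members correlated with Hspa5 at an unadjusted p under 0.05 went from 1 to 2 and the median r of the 31 members from 0.19 to 0.48; the unadjusted calls of the other ER genes and marker lists were not compared with it. The numbers were not taken as pairs: same-numbered mice correlated at r between -0.358 and 0.373, 1 of 5 pairs was above 0.1, and 2 of 10 mice were closest to their own number.

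Of 512 log2 fold changes of single members under the alternatives, 486 kept their direction, and 26 in 7 genes with fold changes near 0 did not; the cause was not tested. Sec61a1 was -0.0012 in DESeq2. With a mouse left out, the range was -0.015 to 0.041 for Sec61a1, -0.0037 to 0.040 for Hsp90b1, -0.033 to 0.018 for Pdia4, -0.062 to 0.011 for Sel1l, -0.045 to 0.0032 for Atf6, -0.12 to 0.10 for Ppp1r15a and -0.065 to 0.051 for Ppp1r15b. Of the other members, 20 stayed positive and 5 negative throughout; among them Pdia3 and Sec61b, at 0.12 each, became 0.055 (without Axl KO replicate 5) and 0.054 (without Axl KO replicate 1). No member's correlation with Hspa5 passed an adjusted p of 0.05 under rank correlation, without centring, with RLE factors, with the block or with a mouse left out.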
